A study of Mus musculus with 14 samples.

Results

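The alveolar macrophage genes described here are Marco, Pparg, Krt79, Plet1, Atp6v0d2, Bhlhe41, Csf2ra and Csf2rb. They were taken by gene name from the count tables of mouse lung, and all 8 were found among the 54347 genes of each table. RNA was sequenced from 14 lung libraries of C57BL/6 mice, all exposed to intranasal Alternaria alternata, an extract of an allergenic mould given on 4 days in doses of 2 mg (40 µl each). The study asked how the nervous system and JAK1, a kinase that carries cytokine signals, shape allergic lung inflammation, and it did so in 3 experiments with controls of their own. In the bone marrow chimeras, irradiated recipients of human JAK1 GOF genotype (gain of function, n = 2) were set against WT recipients (n = 2), and recipients of both kinds were given live WT marrow by vein. The marrow-derived cells of both groups were therefore WT, and alveolar macrophages of a recipient that outlived the irradiation would carry the recipient's genotype. In the intrathecal experiment, WT mice given resiniferatoxin (RTX, 25 ng per mouse on each of 2 days, n = 3) were set against mice given 10 µl saline vehicle (n = 2), which the series describes as denervation of spinal visceral afferents. In the subcutaneous experiment, WT mice given RTX in the flank at 30, 70 and 100 µg/kg over 3 days (n = 3) were set against mice given 100 µl saline vehicle (n = 2), described as denervation of vagal and spinal afferents together. RTX is a capsaicin analogue that kills sensory neurons bearing the channel TRPV1. Nothing in the labels ties the libraries of a group to different animals. The p-values set group differences against the variation among these libraries. That variation may be technical, so the p-values may not extend to other mice.

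Alveolar macrophages live on the air side of the alveolus, where they clear surfactant and inhaled particles. Their identity depends on GM-CSF, a cytokine made in the lung mainly by alveolar type 2 cells, whose receptor signals through JAK2 and STAT5 and switches on PPAR-gamma, the nuclear receptor that sets their lipid handling. They are seeded around birth and renew themselves with little input from blood, but after irradiation donor marrow replaces many of them.

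Each library held 18198872 to 24393000 counts in total, and levels are given as CPM, counts divided by that total and multiplied by 1e+06. Libraries fell into 3 states by a pair of trace transcripts, Rps3a2 and Hmga2. WT recipient 1 differed in state from the other 3 chimera libraries, and each intrathecal RTX library was in another state than both intrathecal vehicle libraries, so that state and RTX cannot be told apart there. In the subcutaneous experiment only the state of vehicle 2 and RTX 1 occurred in both groups. The state of RTX 2 and RTX 3 was in no vehicle library, and that of vehicle 1 in no RTX library. State and RTX can thus be told apart only in part there. Mouse Jak1 had 204 and 191 CPM in JAK1 GOF recipients, against 256 and 281 CPM in WT recipients, and these counts do not check the genotype, because they do not identify the human sequence. The chimera groups also differed in Xist, which silences an X chromosome in female cells, at 62.9 and 73.2 CPM in JAK1 GOF recipients, against 122 and 132 CPM in WT recipients. In bulk lung, fewer alveolar macrophages and less RNA per macrophage cannot be told apart.

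Other defining genes of the cell type were present. Chil3 ranged over the groups between means of 359 and 4690 CPM and Itgax, the integrin CD11c, between 89.5 and 339 CPM. Siglecf, a lectin shared with eosinophils, lay between 6.06 and 30.1 CPM and Car4, shared with capillary endothelium, between 102 and 159 CPM. Fabp1 was at group means of 0.0477 to 0.394 CPM, near the 3 counts per library that a level of 0 allows (0.123 to 0.165 CPM).

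Per kilobase of annotated exon, the medians of the 8 genes over the 14 libraries fell into 3 tiers, and the upper 2 overlapped in range. Plet1 and Csf2ra stood highest, with medians of 45.9 and 43.9 CPM per kilobase and overlapping ranges (29.5 to 77.9 and 32.5 to 68.0). Atp6v0d2 and Csf2rb followed, with medians of 19.0 and 17.0 CPM per kilobase and ranges of 14.6 to 30.5 and 9.85 to 27.2, which also overlap each other. Pparg, Bhlhe41, Krt79 and Marco were lowest, with medians of 3.97, 2.43, 2.22 and 2.19 CPM per kilobase and ranges that overlap throughout. The lowest library of Csf2rb (9.85) was above the highest of each of these 4 genes, the largest being 5.42 CPM per kilobase for Bhlhe41.

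**Figure D1:**
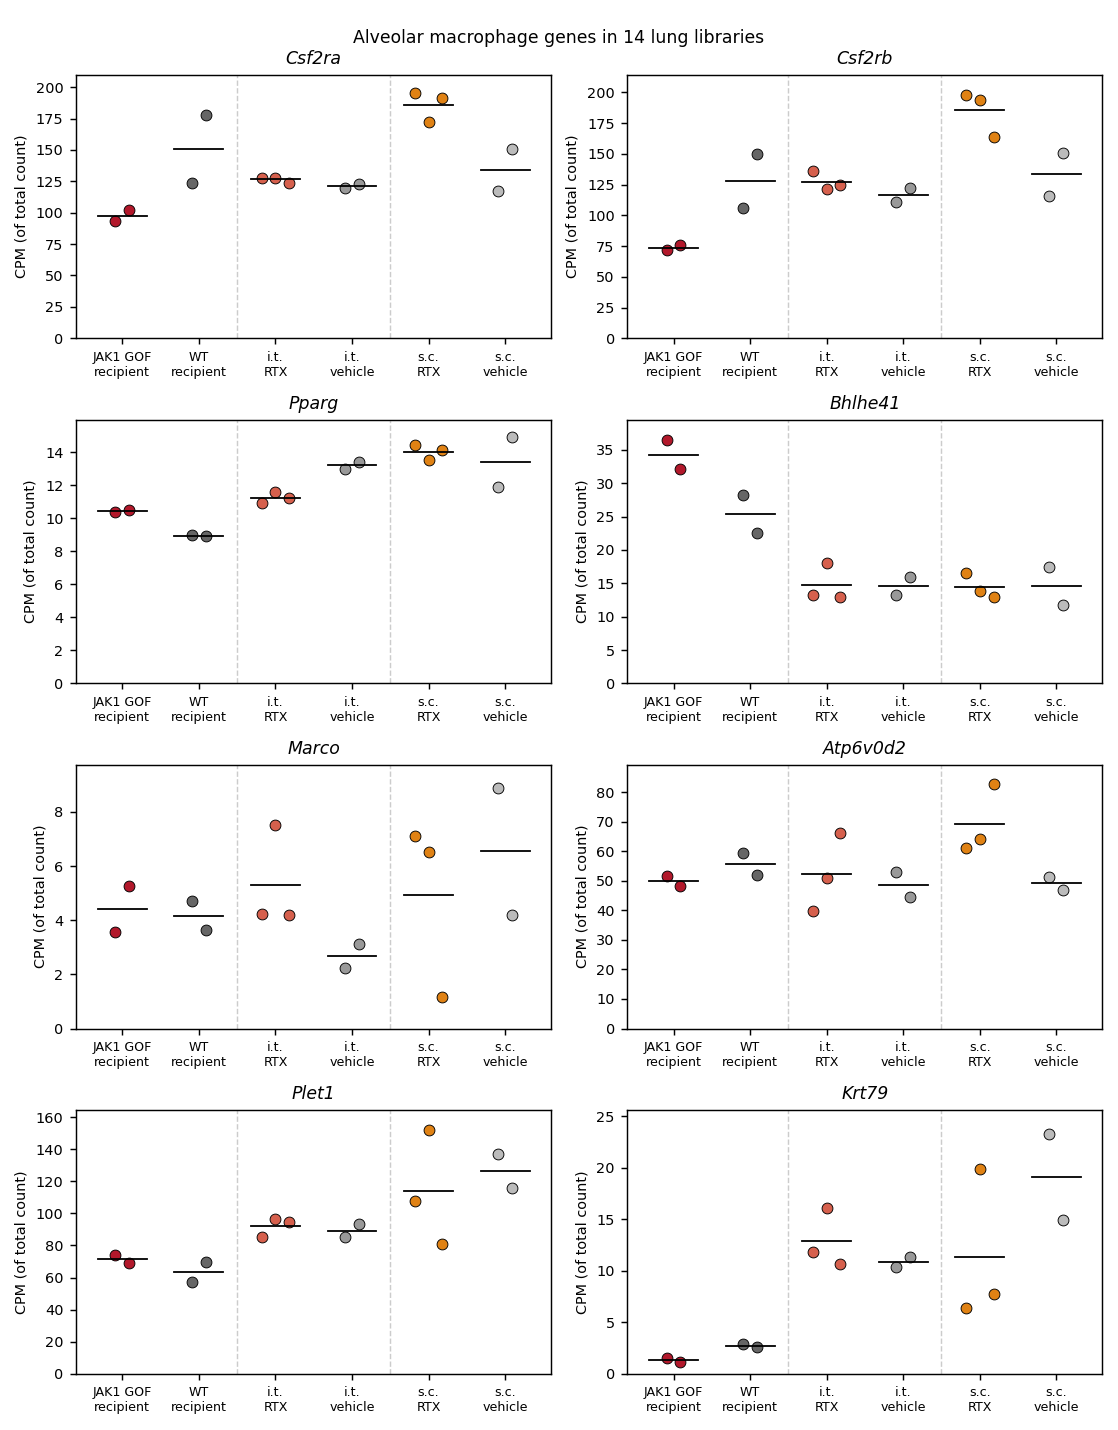
Levels of the 8 genes in each of the 14 libraries, in CPM of the total count (vertical axis, from 0), with 1 point per library and a bar at the group mean; i.t. is intrathecal and s.c. subcutaneous. The group means of Csf2ra and Csf2rb are lowest in JAK1 GOF recipients and highest with subcutaneous RTX, while Krt79 is at 1.15 to 2.86 CPM in the chimeras and at 6.36 CPM or more in every other library.

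None of the 8 genes passed an adjusted p of 0.05 in any of the 3 comparisons with edgeR. In JAK1 GOF recipients, 0 of 8 passed, where 0.717% of all 17298 genes tested did. Their groups did not overlap for 6 of the 8, where 42.6% of all genes tested did not overlap. They were higher for Pparg and Bhlhe41 (19.6% of all genes) and lower for Csf2ra, Csf2rb, Krt79 and Atp6v0d2 (23% of all genes). An unadjusted p under 0.05 was reached by 4 of the 8 (11.6% of all genes), namely Csf2rb, Csf2ra, Krt79 and Bhlhe41. The median log2 fold change of the 8 was −0.03, against 0 over all genes. By DESeq2, 2 of the 8 were lower (Csf2ra and Csf2rb), where that tool called 1.76% of all genes and 1.32% as lower.

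With intrathecal RTX, edgeR again called 0 of the 8, where it called 0.311% of 17360 genes. The groups did not overlap for Marco and Csf2ra, which were higher, and Pparg, which was lower (30.3% of all genes did not overlap). Marco was the 1 gene of the 8 with an unadjusted p under 0.05 (11.5% of all genes), the median log2 fold change was 0.10 (all genes 0.01), and DESeq2 called 0 of the 8 (1.46% of all genes).

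With subcutaneous RTX, edgeR called 0 of the 8 and 0% of 17363 genes. Csf2ra, Csf2rb and Atp6v0d2 were higher without overlap between the groups (38.3% of all genes did not overlap in either direction, 20.5% higher), and the same 3 had an unadjusted p under 0.05 (18.2% of all genes). The median log2 fold change of the 8 was 0.01 (all genes 0). DESeq2 called these 3 higher, where it called 4.38% of all genes and 2.23% as higher, and limma voom called 0 of the 8 in each of the 3 comparisons.

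**Figure D2:**
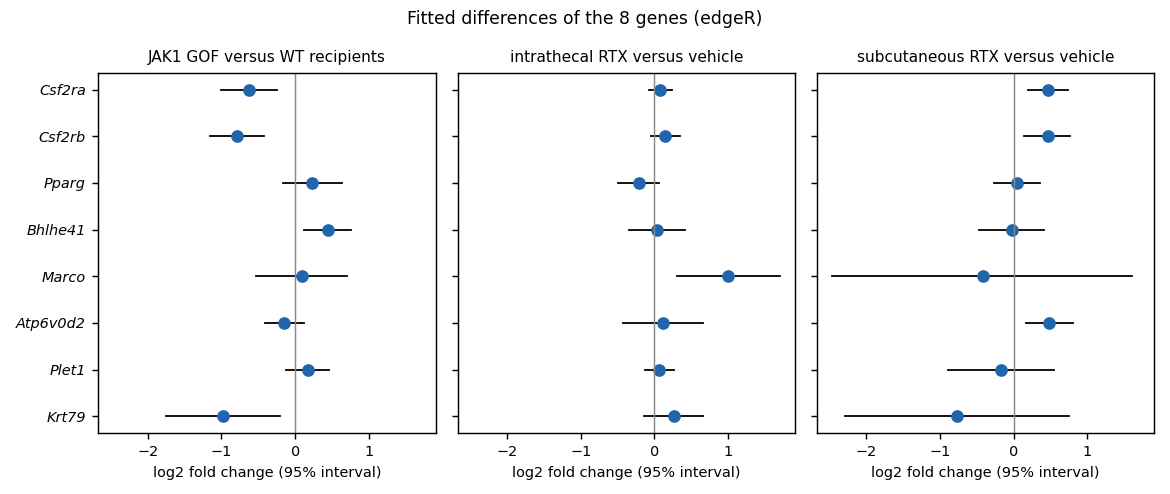
Fitted log2 fold changes of the 8 genes in the 3 comparisons (horizontal axis; points are edgeR estimates and lines their 95% intervals), JAK1 GOF over WT recipients on the left, RTX over vehicle in the middle and on the right. Csf2ra and Csf2rb lie below 0 in JAK1 GOF recipients (−0.63 and −0.79) and above 0 with subcutaneous RTX (0.46 each), and the intervals of Marco and Krt79 with subcutaneous RTX are the widest.

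Csf2ra and Csf2rb encode the chains of the GM-CSF receptor. Csf2ra encodes the alpha chain, which binds GM-CSF, and Csf2rb the common beta chain, which carries the signal and is shared with the interleukin 3 and interleukin 5 receptors. Csf2ra (ENSMUSG00000059326.7) lies at chr19:61223957-61228429 on the minus strand of GRCm38 and Csf2rb (ENSMUSG00000071713.6) at chr15:78325752-78353847 on the plus strand. The start site of the alpha chain gene is shown with the core motif of PU.1, a transcription factor of macrophages, in capitals. No window was found for Csf2rb, so the start sites of the chains could not be compared. Both windows below run from 250 bases before to 50 bases after the start site, read on the gene's strand, from RefSeq on GRCm38.p6 (chr19:61228369-61228668 for Csf2ra, minus strand). The window of Marco (chr1:120504975-120505274, minus strand) stands beside it as that of another member that holds the motif.

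Csf2ra promoter: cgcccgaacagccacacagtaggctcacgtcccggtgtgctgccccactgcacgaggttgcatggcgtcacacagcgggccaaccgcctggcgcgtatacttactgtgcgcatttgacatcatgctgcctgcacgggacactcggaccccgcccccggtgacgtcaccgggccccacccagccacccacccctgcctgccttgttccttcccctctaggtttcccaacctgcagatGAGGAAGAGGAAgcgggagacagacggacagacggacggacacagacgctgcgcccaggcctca

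Marco promoter: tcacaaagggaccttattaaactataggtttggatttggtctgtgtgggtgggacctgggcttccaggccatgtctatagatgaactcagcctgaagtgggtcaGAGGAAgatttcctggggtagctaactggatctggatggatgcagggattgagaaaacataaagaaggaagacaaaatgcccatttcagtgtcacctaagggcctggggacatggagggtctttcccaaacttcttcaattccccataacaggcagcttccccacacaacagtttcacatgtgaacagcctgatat

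The motif GAGGAA was searched on both strands. Csf2ra held it on the gene's strand in a directly joined pair, starting 14 and 8 bases before the start site, and Marco held it once, 146 bases before. A window of Pparg also held it once, 240 bases before the start site. Windows were found for 6 of the 8 genes, with more than 1 for Pparg and 8 windows in all. Of these 8 windows 3 held the motif, and 28.3% of all 32851 windows of this length did. The window of Csf2ra has a GC content of 65.3% and that of Marco 47.3%. An E-box (CACGTG), the kind of site that BHLHE41 binds, was in 7.15% of windows and, among these genes, in that of Bhlhe41 itself. A match is a description of the letters and not of binding.

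Csf2ra had 93.2 and 102 CPM in JAK1 GOF recipients, against 124 and 178 CPM in WT recipients. Csf2rb had 71.7 and 75.5 CPM in JAK1 GOF recipients, against 106 and 150 CPM in WT recipients. Both chains were lower in each JAK1 GOF library than in either WT library, and the WT libraries lay far apart. The log2 fold change was −0.63 ± 0.17 for Csf2ra and −0.79 ± 0.17 for Csf2rb (SE; edgeR adjusted p = 0.16 and 0.0686), or 0.648-fold and 0.577-fold. Leaving out WT recipient 1, which differed in state from the other chimera libraries, brought the log2 fold changes to −0.88 and −1.03. Leaving out WT recipient 2 brought them to −0.32 and −0.50. Without JAK1 GOF recipient 1 they were at −0.57 and −0.76.

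With intrathecal RTX, Csf2ra was at 128, 128 and 124 CPM, against 120 and 123 CPM with vehicle. Csf2rb was at 136, 121 and 125 CPM with intrathecal RTX and at 111 and 122 CPM with vehicle. The differences were small and, for Csf2rb, the groups overlapped. The log2 fold changes were 0.08 (95% interval −0.08 to 0.24) and 0.14 (−0.05 to 0.34), with edgeR adjusted p = 0.724 and 0.559.

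With subcutaneous RTX, Csf2ra was at 195, 172 and 191 CPM, against 117 and 151 CPM with vehicle. Csf2rb was at 198, 194 and 164 CPM with subcutaneous RTX, against 116 and 151 CPM with vehicle. All 3 RTX libraries stood above both vehicle libraries in each gene. The log2 fold change was 0.46 for both, with SE of 0.12 and 0.13 (edgeR adjusted p = 0.138 and 0.163), or 1.37-fold. Without subcutaneous vehicle 2 both were at 0.66, and without subcutaneous vehicle 1 they were at 0.28 for Csf2ra and 0.27 for Csf2rb. Over all alternatives the adjusted p ran between 0.0145 and 0.543 for Csf2ra and between 0.0301 and 0.617 for Csf2rb.

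**Figure D3:**
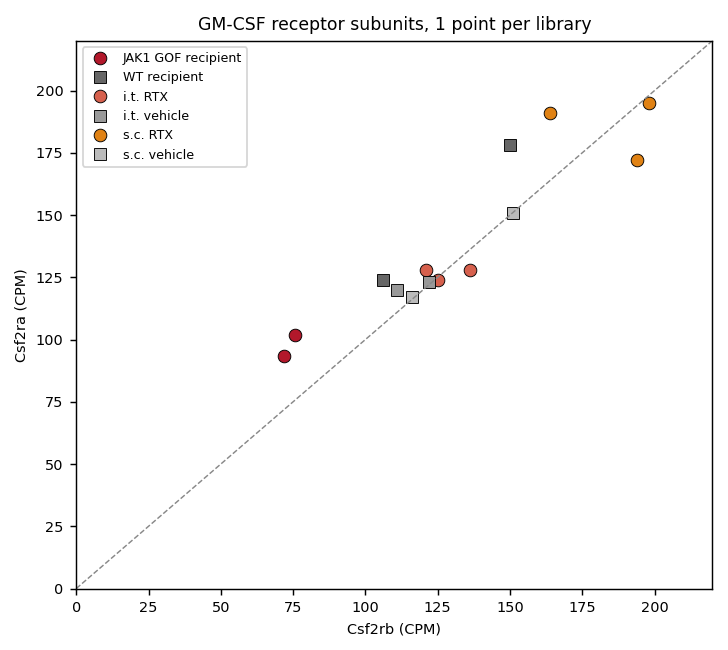
Csf2ra (vertical axis) against Csf2rb (horizontal axis), both in CPM, with 1 point per library; circles are JAK1 GOF recipients and RTX, squares WT recipients and vehicle, and the dashed line marks equal levels. The JAK1 GOF recipients lie lowest on both axes, the subcutaneous RTX libraries lie highest in Csf2rb while WT recipient 2 (178 CPM) exceeds 1 of them (172 CPM) in Csf2ra, and all 4 chimera libraries lie above the line.

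The count of Csf2ra over that of Csf2rb was 1.30 and 1.35 in JAK1 GOF recipients and 1.17 and 1.19 in WT recipients. In the RTX experiments the ratio lay between 0.889 and 1.16. The libraries of the chimera experiment were thus higher in this ratio than every other library, which is a description across separate experiments with no test. Reads of Csf2rb may be shared with Csf2rb2, a near-identical neighbour for the interleukin 3 receptor that had 26.0 to 101 CPM. Csf2rb2 was at 26.0 and 32.4 CPM in JAK1 GOF recipients, against 42.9 and 57.0 CPM in WT recipients. With subcutaneous RTX it had 91.0, 101 and 77.1 CPM, against 50.9 and 80.4 CPM with vehicle. With both genes summed, the log2 fold change was −0.79 in JAK1 GOF recipients and 0.45 with subcutaneous RTX (edgeR adjusted p = 0.0645 and 0.21).

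The receptor chains are also made by eosinophils, neutrophils, monocytes and dendritic cells, and markers of these and other cells differed between the same libraries. Of all genes tested in the chimeras, 23% were lower and 19.6% higher without overlap, and 0.717% were called. In JAK1 GOF recipients, 6 of 7 eosinophil markers were lower without overlap, and 0 of the 6 tested were called. The 7 summed to 43.6 to 50.2 CPM in JAK1 GOF recipients, against 73.9 to 121 CPM in WT recipients. Epx, eosinophil peroxidase, was at 0 in both JAK1 GOF libraries. Ear1, Ear2 and Siglecf of this sum are also among the other alveolar macrophage genes listed below. Ear2 alone had means of 34.4 CPM in JAK1 GOF recipients and 67.4 CPM in WT recipients. The sum therefore does not separate eosinophils from alveolar macrophages. The eosinophil markers outside that list also had lower means in JAK1 GOF than in WT recipients. Prg2 had means of 0.284 and 3.89 CPM, and Ccr3 of 1.91 and 7.5 CPM. Those of Ear6 were 1.26 and 1.57 CPM, and those of Epx 0 and 0.167 CPM. Of 7 neutrophil markers 6 were lower without overlap and 1 was called, with sums of 221 to 314 CPM in JAK1 GOF recipients and 353 to 411 CPM in WT recipients. Of 7 dendritic cell markers 5 were lower without overlap and 2 were called, with sums of 99.1 to 101 CPM in JAK1 GOF recipients and 137 to 144 CPM in WT recipients. All 8 fat markers were higher without overlap, 0 of the 7 tested being called, with sums of 114 to 180 CPM in JAK1 GOF recipients and 35.5 to 58.8 CPM in WT recipients. All 6 heart muscle markers were higher without overlap and 5 were called, with sums of 219 to 291 CPM in JAK1 GOF recipients and 90.0 to 116 CPM in WT recipients. Of 12 markers of monocytes and interstitial macrophages 4 were lower and 3 higher without overlap, with 1 called as lower and sums of 1960 to 2180 CPM in JAK1 GOF recipients and 1890 to 1980 CPM in WT recipients. All 5 club cell markers, of the airway lining, were higher without overlap and 1 was called, with sums of 11100 to 12700 CPM in JAK1 GOF recipients and 7440 to 9920 CPM in WT recipients. In alveolar type 1 cells and in lung endothelium 4 of 5 markers each were higher without overlap and 0 were called. Of 5 alveolar type 2 markers 2 were higher and 1 lower without overlap, and 0 were called. Of 6 markers of macrophages in general 1 was higher and 2 were lower without overlap, and 0 were called. These 6 summed to 5350 to 5900 CPM in JAK1 GOF recipients and 4890 to 4990 CPM in WT recipients.

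With subcutaneous RTX, 38.3% of all genes tested did not overlap between the groups, 20.5% being higher, and 0% were called. Of 7 eosinophil markers 6 were higher without overlap and 0 were called. All 7 summed to 345 to 385 CPM with RTX and 230 to 299 CPM with vehicle. Within these sums Ear2, also an alveolar macrophage gene, had means of 273 CPM with RTX and 216 CPM with vehicle. Among markers outside the alveolar macrophage list, Prg2 had means of 19.5 and 6.8 CPM, and Ccr3 of 24.1 and 11.1 CPM. Those of Ear6 were 8.58 and 2.43 CPM, and those of Epx 1.54 and 0.387 CPM. Neutrophil markers summed to 188 to 247 CPM with subcutaneous RTX and 96.6 to 158 CPM with vehicle, 4 of 7 being higher without overlap and 0 of the 6 tested being called. Dendritic cell markers summed to 194 to 203 CPM with subcutaneous RTX and 199 to 201 CPM with vehicle. Of 12 markers of monocytes and interstitial macrophages 3 were higher and 1 lower without overlap. Their sums were 1650 to 1820 CPM with subcutaneous RTX and 1580 to 1660 CPM with vehicle. Club cell markers summed to 4690 to 5270 CPM with subcutaneous RTX and 7950 to 12800 CPM with vehicle, 4 of 5 being lower without overlap. So were 4 of 5 markers of alveolar type 1 cells and 3 of 5 of lung endothelium, and 0 of these were called. Of 6 markers of macrophages in general 3 were higher and 0 lower without overlap. Their sums were 2540 to 3480 CPM with subcutaneous RTX and 3310 to 4840 CPM with vehicle. With intrathecal RTX 4 of 7 eosinophil markers were higher and 0 lower without overlap (30.3% of all genes did not overlap). Among macrophages in general 1 of 6 was higher and 3 were lower there. The part of these cells in the receptor values was not tested.

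Pparg and Bhlhe41 encode transcription factors of the cell type. Pparg (chr6:115360951-115490399, plus strand) encodes PPAR-gamma, and Bhlhe41 (chr6:145858243-145865558, minus strand) a repressor that with its relative BHLHE40 keeps alveolar macrophages renewing themselves. Each overlaps an annotated gene on the other strand (Gm44079 and Gm43909), and the strand setting of the counting is not given in the sources used here, so reads of such pairs may be mixed.

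Pparg was at 10.4 and 10.5 CPM in JAK1 GOF recipients, against 9.0 and 8.90 CPM in WT recipients. It was at 10.9, 11.6 and 11.2 CPM with intrathecal RTX, against 13.0 and 13.4 CPM with vehicle. With subcutaneous RTX it was at 14.4, 13.5 and 14.1 CPM, against 11.9 and 14.9 CPM with vehicle. The groups did not overlap in the first 2 experiments and overlapped in the third. The log2 fold changes were 0.23 ± 0.18, −0.21 ± 0.12 and 0.05 ± 0.14 (SE; edgeR adjusted p = 0.686, 0.546 and 0.876). Over the 14 libraries Pparg had the smallest range of the 8, with the highest library 1.68-fold above the lowest.

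Bhlhe41 was at 36.4 and 32.1 CPM in JAK1 GOF recipients, against 28.3 and 22.6 CPM in WT recipients. It was at 13.3, 18.1 and 13.0 CPM with intrathecal RTX, against 13.2 and 16.0 CPM with vehicle, and at 16.6, 13.9 and 12.9 CPM with subcutaneous RTX, against 17.4 and 11.8 CPM with vehicle. It was higher in both JAK1 GOF libraries than in the WT libraries, and its RTX groups overlapped. The log2 fold change in JAK1 GOF recipients was 0.44 ± 0.14 (SE, edgeR adjusted p = 0.235). It was 0.59 without WT recipient 1 and 0.30 without WT recipient 2. With RTX it was 0.03 (95% interval −0.35 to 0.41) by the intrathecal and −0.03 (−0.47 to 0.41) by the subcutaneous route.

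Marco (chr1:120474538-120505024, minus strand) encodes a scavenger receptor that binds bacteria and particles. It had 3.58 and 5.28 CPM in JAK1 GOF recipients, against 4.71 and 3.64 CPM in WT recipients. With intrathecal RTX it had 4.22, 7.50 and 4.21 CPM, against 2.23 and 3.13 CPM with vehicle. With subcutaneous RTX it had 7.10, 6.51 and 1.15 CPM, against 8.89 and 4.2 CPM with vehicle. Only the intrathecal groups were apart, with every RTX library above both vehicle libraries, and the lowest and highest of the 14 libraries were both in the subcutaneous experiment. The log2 fold change with intrathecal RTX was 1.00 ± 0.31 (SE, n = 3 and 2; edgeR adjusted p = 0.275), or 2.00-fold (95% interval 1.23 to 3.24). Marco passed in 1 alternative, with no filter on low counts (edgeR adjusted p = 0.00582; the highest over the alternatives was 1). Over the alternatives the log2 fold change of Marco with intrathecal RTX ran between 0.45 and 1.27, in groups that also differed in library state. Its estimated counts were small, between 24 and 197 per library.

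Atp6v0d2 (chr4:19876841-19922605, minus strand) encodes a subunit of the vacuolar proton pump that acidifies lysosomes. It had 51.7 and 48.2 CPM in JAK1 GOF recipients, against 59.5 and 51.8 CPM in WT recipients. With intrathecal RTX it had 39.6, 51.0 and 66.0 CPM, against 52.9 and 44.5 CPM with vehicle. With subcutaneous RTX it had 61.0, 64.2 and 82.8 CPM, against 51.3 and 46.9 CPM with vehicle. In the subcutaneous experiment every RTX library was above both vehicle libraries, while the intrathecal vehicle libraries lay within the spread of the RTX ones. The log2 fold changes were −0.15 ± 0.12, 0.12 ± 0.22 and 0.48 ± 0.14 (SE; edgeR adjusted p = 0.707, 0.879 and 0.156). With subcutaneous RTX, DESeq2 called it at an adjusted p of 0.0372, and over all alternatives the adjusted p reached 0.56.

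Plet1 (chr9:50494525-50505482, plus strand, overlapped on the minus strand by Plet1os) encodes a surface protein of alveolar macrophages and some epithelia. It had 73.8 and 69.1 CPM in JAK1 GOF recipients, against 57.5 and 70.0 CPM in WT recipients. With intrathecal RTX it had 85.4, 96.6 and 94.8 CPM, against 85.2 and 93.5 CPM with vehicle, and with subcutaneous RTX 108, 152 and 81.1 CPM, against 137 and 116 CPM with vehicle. The groups overlapped in all 3 experiments, with log2 fold changes of 0.17, 0.06 and −0.17 (edgeR adjusted p = 0.68, 0.828 and 0.785).

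Krt79 (chr15:101929332-101940324, minus strand) encodes a type II keratin found in alveolar macrophages and also in skin and its glands. It had 1.57 and 1.15 CPM in JAK1 GOF recipients, against 2.86 and 2.58 CPM in WT recipients. With intrathecal RTX it had 11.8, 16.1 and 10.7 CPM, against 10.4 and 11.3 CPM with vehicle, and with subcutaneous RTX 6.36, 19.9 and 7.76 CPM, against 23.3 and 14.9 CPM with vehicle. It was lower without overlap in JAK1 GOF recipients and overlapped in both RTX experiments. The log2 fold change in JAK1 GOF recipients was −0.98 ± 0.35 (SE, n = 2 each; edgeR adjusted p = 0.295), and 21 to 60 counts per library stood behind it. Krt79 spanned the widest range of the 8, its highest library being 20.2-fold above its lowest. Squamous epithelium, another source of keratin RNA, had markers summing to 73.3 to 74.7 CPM in JAK1 GOF recipients and 66.3 to 68.5 CPM in WT recipients, and its part in Krt79 was not tested.

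Set side by side without a test, the chimera libraries as a group stood apart from the other 10 in 4 genes. The share of all genes that stood apart in this way was not counted. Whether these 4 are more than that share would give is therefore not known. Krt79 was lower in every chimera library, at 1.15 to 2.86 CPM in the chimeras and 6.36 to 23.3 CPM elsewhere. So was Plet1, at 57.5 to 73.8 CPM in the chimeras and 81.1 to 152 CPM elsewhere, and so was Pparg, at 8.90 to 10.5 CPM in the chimeras and 10.9 to 14.9 CPM elsewhere. Bhlhe41 was higher in every chimera library, at 22.6 to 36.4 CPM in the chimeras and 11.8 to 18.1 CPM elsewhere. Marco, Atp6v0d2, Csf2ra and Csf2rb overlapped. Xist was also higher in every chimera library, at 62.9 to 132 CPM in the chimeras and 0.913 to 5.11 CPM elsewhere. Irradiation with marrow transfer, the share of female cells and the experiment itself cannot be told apart.

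The difference between the subcutaneous and the intrathecal RTX effect came from 1 joint fit of the 10 libraries. edgeR called 0 of the 8 genes, where it called 0.0556% of 17972 genes, and 1 of the 8 had an unadjusted p under 0.05 (15.2% of all genes). That gene was Csf2ra, at 0.39 ± 0.14 (SE; edgeR adjusted p = 0.246), with Csf2rb at 0.32 ± 0.17 (adjusted p = 0.398). DESeq2, which called 1.74% of all genes, and limma voom also called 0 of the 8.

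A contrast of the subcutaneous RTX effect minus the JAK1 GOF recipient effect, in 1 fit of 9 libraries, was added after the values had been seen, and it was chosen because the fold changes of the receptor chains had opposite signs. It is a description of that choice and no independent support. Here Csf2ra and Csf2rb passed, at 1.08 ± 0.24 and 1.24 ± 0.25 on the log2 scale (SE; edgeR adjusted p = 0.0487 and 0.0385), where edgeR called 2.87% of 18074 genes and 1.78% in this direction. The Csf2ra and Csf2rb calls held without WT recipient 1 (1.34 and 1.49) and without subcutaneous vehicle 2 (1.29 and 1.46). Both calls ended without WT recipient 2 (0.78 and 0.96), JAK1 GOF recipient 1 (1.02 and 1.21), JAK1 GOF recipient 2 (1.15 and 1.28), subcutaneous vehicle 1 (0.91 and 1.07), and subcutaneous RTX 1 (1.05 and 1.2), 2 (1.14 and 1.22) or 3 (1.06 and 1.32). Over the alternatives the adjusted p of Csf2ra ran between 1.79e-09 and 0.191 and that of Csf2rb between 1.76e-12 and 0.164. Atp6v0d2 was at 0.62 ± 0.19 (edgeR adjusted p = 0.094), and these 3 were the members with an unadjusted p under 0.05 (22.4% of all genes). DESeq2 called the same 3, where it called 7.7% of all genes.

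Among 14 further genes of GM-CSF signalling, edgeR called 0 in each of the 3 comparisons. In JAK1 GOF recipients 4 of the 14 reached an unadjusted p under 0.05, all lower, where 11.6% of all genes did in either direction, with a median log2 fold change of −0.12 over the list (all genes 0). They were Csf2rb2 at −0.77 ± 0.17 (edgeR adjusted p = 0.0791), Jak2, the kinase bound to the beta chain, at −0.52, Stat5a, its downstream factor, at −0.53, and Il5ra, the interleukin 5 receptor alpha chain of eosinophils, at −1.56. Jak2 had a mean of 81.2 ± 4.63 CPM in JAK1 GOF recipients and 117 ± 12.5 CPM in WT recipients (SD, n = 2 each). With intrathecal RTX the list median was 0.09 (all genes 0.01) and the smallest p was that of Socs3, a feedback inhibitor, at 0.36 ± 0.11 (edgeR adjusted p = 0.278). With subcutaneous RTX it was 0.18 (all genes 0), and Spi1, which encodes PU.1, had the smallest p at 0.28 ± 0.11 (edgeR adjusted p = 0.247). Csf2, the gene of GM-CSF, was at 1.92 to 3.27 CPM in JAK1 GOF recipients and 1.33 to 3.25 CPM in WT recipients. Its level was 1.97 to 2.11 CPM with intrathecal RTX and 2.22 to 2.59 CPM with vehicle. It was at 1.62 to 3.35 CPM with subcutaneous RTX and 1.49 to 3.20 CPM with vehicle. Its chimera and subcutaneous groups overlapped.

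Of 18 other alveolar macrophage genes 17 were tested, and 2 fell in JAK1 GOF recipients while 0 rose, where 0.717% of all genes were called, with a list median of −0.21 (all genes 0). Chil3, a chitinase-like protein, was at 354 to 364 CPM in JAK1 GOF recipients and 1090 to 1670 CPM in WT recipients, a log2 fold change of −1.94 ± 0.22 (edgeR adjusted p = 0.00547). Itgax was at 81.0 to 98.0 CPM in JAK1 GOF recipients and 169 to 256 CPM in WT recipients, at −1.24 ± 0.20 (edgeR adjusted p = 0.043), and it is also a dendritic cell gene. The call of Itgax ended without JAK1 GOF recipient 1 (−1.12) and without JAK1 GOF recipient 2 (−1.39). That of Chil3 held whichever library was left out (−2.22 to −1.58), but only narrowly without JAK1 GOF recipient 1 (−1.96) or 2 (−1.92). Siglecf, in both the alveolar macrophage and the eosinophil list, was at −0.95 (edgeR adjusted p = 0.318). With intrathecal RTX 0 of the 17 were called and the median was 0.14, and with subcutaneous RTX 0 were called and the median was 0.32, with 7 higher and 4 lower at an unadjusted p under 0.05 (18.2% of all genes in either direction). Siglecf had the smallest of these, at 27.1 to 34.1 CPM with subcutaneous RTX and 14.3 to 20.5 CPM with vehicle, a log2 fold change of 0.78 ± 0.17 (edgeR adjusted p = 0.127). Car4 was lower, at 98.2 to 131 CPM with subcutaneous RTX and 148 to 170 CPM with vehicle.

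Among 14 partners and lipid targets of PPAR-gamma, 0 were called in the 3 comparisons. Cidec, a lipid droplet protein that is also a fat marker, was at 10.2 to 16.6 CPM in JAK1 GOF recipients and 4.48 to 5.93 CPM in WT recipients (log2 fold change 1.36 ± 0.26; edgeR adjusted p = 0.0505), beside the fat markers given above. Angptl4, a secreted inhibitor of lipoprotein lipase, was at 91.5 to 134 CPM with intrathecal RTX and 53.2 to 55.9 CPM with vehicle (1.01 ± 0.17; edgeR adjusted p = 0.0855). With subcutaneous RTX the smallest p was that of Rxrb, a partner receptor, at 0.31 ± 0.07 (edgeR adjusted p = 0.127).

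The 17 other proton pump subunits and accessory proteins had medians of 0.03 in JAK1 GOF recipients, 0.03 with intrathecal RTX and −0.02 with subcutaneous RTX, and 0 were called. Atp6v1b2, the B2 subunit of the pump, was at 222 to 233 CPM with subcutaneous RTX and 166 to 183 CPM with vehicle (0.36 ± 0.07; edgeR adjusted p = 0.119), in the same libraries in which Atp6v0d2 was higher. Atp6v0e had the smallest p in the other 2 comparisons, at 0.22 in JAK1 GOF recipients and 0.21 with intrathecal RTX (edgeR adjusted p = 0.58 and 0.384).

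Among 11 other scavenger receptors 0 were called. Olr1, the oxidised LDL receptor, was at 10.9 to 12 CPM in JAK1 GOF recipients and 18.5 to 30.9 CPM in WT recipients (−1.10 ± 0.24; edgeR adjusted p = 0.093). Cd163, the haemoglobin scavenger of tissue macrophages, was at 58.0 to 96.2 CPM with intrathecal RTX and 47.9 to 49.2 CPM with vehicle (0.75 ± 0.22; edgeR adjusted p = 0.307). Msr1, the macrophage scavenger receptor, was at 18.4 to 20.1 CPM with subcutaneous RTX and 7.22 to 10.4 CPM with vehicle (1.12 ± 0.17; edgeR adjusted p = 0.0947, equal to the smallest of all genes in that comparison).

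Of 12 macrophage transcription factors 1 rose with intrathecal RTX, where 0.311% of all genes were called. Cebpb, a factor induced by inflammatory signals, was at 86.7 to 95.3 CPM with intrathecal RTX and 42.3 to 43.4 CPM with vehicle (1.12 ± 0.08; edgeR adjusted p = 0.000399), in libraries that also differed in state. With library state as a term in the fit of 14 libraries, Cebpb was at 0.23 (edgeR adjusted p = 1, where that without the term was 0.425 and those without single libraries were 0.000638 to 0.00968). With subcutaneous RTX the smallest p was that of Klf4 (−0.43 ± 0.10; edgeR adjusted p = 0.131). Of 11 genes of TGF-beta and CSF1 signalling, which support macrophages in the alveolus and elsewhere, 0 were called, and the smallest p was that of Csf1r in JAK1 GOF recipients (−0.39), Tgfbr1 with intrathecal RTX (−0.37) and Csf1 with subcutaneous RTX (0.34; edgeR adjusted p = 0.339, 0.114 and 0.121).

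In the difference between the RTX effects, edgeR called 0 genes of the 7 lists. In the contrast of subcutaneous RTX minus JAK1 GOF, chosen after the values were seen, Chil3 (2.32), Itgax (1.72), Clec7a (1.54), Olr1 (1.52) and Msr1 (1.35) passed as higher and Car4 (−0.82) as lower (edgeR adjusted p = 0.0177, 0.0256, 0.0304, 0.0331, 0.0335 and 0.0457), where 2.87% of all genes were called. Clec7a, the receptor for fungal beta-glucan, was at 229 to 252 CPM with subcutaneous RTX and 160 to 191 CPM with vehicle, and at 61.1 to 77.3 CPM in JAK1 GOF recipients and 119 to 182 CPM in WT recipients. All 6 calls ended without JAK1 GOF recipient 1 (edgeR adjusted p = 0.101 to 0.174), without JAK1 GOF recipient 2 (0.0591 to 0.0741) and without subcutaneous vehicle 1 (0.0548 to 0.174). Those of Clec7a, Olr1 and Msr1 also ended without any 1 of the subcutaneous RTX libraries, that of Msr1 without WT recipient 2, and that of Car4 without either WT recipient or subcutaneous RTX 1 or 3 (edgeR adjusted p = 0.0524 to 0.15). Chil3 ran between 1.96 and 2.61 and Itgax between 1.38 and 2.01 over the libraries left out, with no change of sign in any of the 6.

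**Figure D4:**
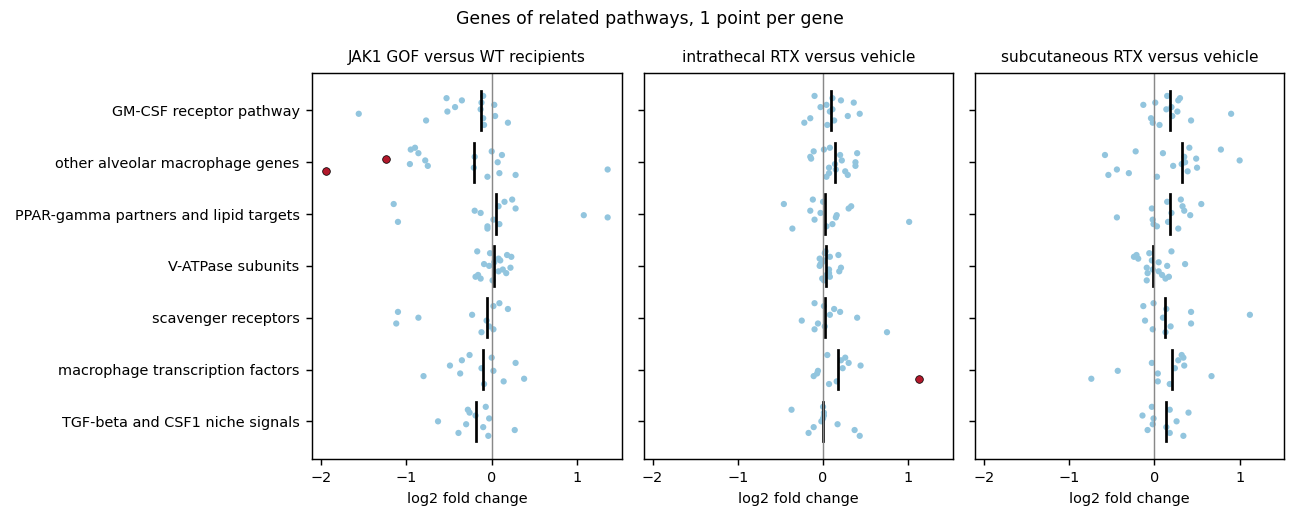
Fitted log2 fold changes (horizontal axis) of the genes of 7 related lists, with 1 point per gene, a black bar at each list's median and 1 panel per comparison; dark red points passed an edgeR adjusted p of 0.05. The 3 dark red points are Chil3 and Itgax, lower in JAK1 GOF recipients, and Cebpb, higher with intrathecal RTX.

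Likeness was measured as the root-mean-square difference of log2(CPM + 1) over the 14 libraries, each gene centred within its experiment, among 14019 genes. Csf2ra was most like Hcls1, a signalling adaptor of blood cells, and Itgb2, the beta 2 integrin of leukocytes (differences of 0.0671 and 0.0700, beside its own spread of 0.25). Csf2rb was most like Hcls1 and Marchf1 (0.0845 and 0.0864, beside a spread of 0.286). The receptor chains differed from each other by 0.0971, with 27 genes nearer to Csf2ra and 11 nearer to Csf2rb. The nearest genes of Krt79 were Fpr1 and Fpr2, formyl peptide receptors of neutrophils and other phagocytes (0.269 and 0.291, beside a spread of 0.464). Those of Marco were Il1f9 and Ackr1 (0.348 and 0.357, beside 0.552). For Pparg they were Upf3a and Pmaip1, for Plet1 Tmem177 and Kcnn3, for Atp6v0d2 Lhfpl2 and AU022793 and for Bhlhe41 Zfp707 and Jam3, with differences of 0.0488 to 0.122.

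Plet1 was the nearest member to Marco, with 29 genes nearer, and to Krt79, with 128 nearer. The nearest member to Pparg was Bhlhe41, with 10441 genes nearer, and those of Plet1, Atp6v0d2 and Bhlhe41 had 6675, 6368 and 4408 genes nearer. Within groups, the deviations of the 8 genes were correlated over the 14 libraries in 28 pairs, with an exact permutation test within groups (576 permutations, two-sided). Of the 28 pairs 0 passed after Benjamini-Hochberg adjustment, and the smallest p this design allows is 0.00174. Csf2ra and Csf2rb had Pearson's r = 0.80 (exact permutation p = 0.248, adjusted 0.67) and Spearman's rho = 0.63 (p = 0.259, adjusted 0.681), and r = 0.59 without the 2 libraries farthest out. The lowest p was that of Atp6v0d2 with Csf2rb, at r = −0.61 (exact permutation p = 0.00868, adjusted 0.243), rho = −0.76 (p = 0.0122, adjusted 0.17) and r = −0.78 without the 2 libraries.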

How the data were processed

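Lung RNA was sequenced in 14 libraries, from poly(A) RNA per the labels' protocols. Per the submitters' processing notes, FastQC 0.11.8, Trim Galore 0.6.6, STAR 2.7.5b and Salmon 1.2.1 were used with genome build GRCm38; the release of the annotation and any strand setting are not given in the sources used here. In all, the authors deposited 1 table per experiment with 1 estimated count per gene and library, and 24.2% of those values were not whole numbers. Identifiers of 54094 of 54347 genes were found in GENCODE M21, from which positions and exon lengths were taken; those of the 8 members matched in the same version.

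Counts were rounded, and edgeR 4.0.16 (R 4.3.3) was run on each table by itself, using TMM scaling, filterByExpr (minimum count 10, minimum total 15) and a robust quasi-likelihood fit. Benjamini-Hochberg adjustment covered every gene tested in a comparison, and adjusted p under 0.05 was called. CPM values use the total count. A level of 0 allows 3 counts per library, and floors reflect counting error only, since without molecular identifiers PCR copies cannot be told from separate molecules. Replicates differed by more than sampling noise (chi-square per degree of freedom 9.57 to 23.1). Same-numbered libraries did not deviate together (r between −0.32 and 0.01). The procedure was also run on simulated data, in which only genes with higher mean counts than Krt79 had in the chimeras were changed. That run does not cover genes at such low counts.

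The members and gene lists were chosen with earlier results of these data known. The named genes were the 8 members, from each list up to 4 called genes or else that with the smallest p, and the 2 genes most like each member, leaving out names of predicted genes or clones and genes under a mean of 1 on the log2(CPM + 1) scale. Jak2, Stat5a, Il5ra, Csf2, Car4 and Siglecf in JAK1 GOF recipients were named beside them after their values were seen. One gene named by this rule is not reported here. Library state was A with over 2 CPM of Rps3a2, B with at most 2 CPM of it and over 2 CPM of Hmga2, and C with neither. Alternatives were DESeq2 1.42.0 and its size factors, limma 3.58.1 with voom, total counts, no filter, 1 CPM in 2 libraries, no robust prior, a replicate block, all 14 libraries in 1 fit without and with library state, and each library left out, for the members and for called genes of the lists. Added after the data had been seen were the contrast across experiments and the sum of Csf2rb and Csf2rb2. Figures were drawn with matplotlib 3.10.9.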

Additional observations from a re-analysis of the deposited data

How the results depend on the processing

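Counts of calls depended on the method, and the cause was not tested unless the setting itself shows it. Of the 8 members, edgeR called 1 in JAK1 GOF recipients with total counts alone, where it called 157 of 17298 genes. It called 2 with no low-count filter (807 of 28728 genes). DESeq2 called 2 (305 of 17298 genes), and the fit of 14 libraries with library state 2 (177 of 18364 genes). With no low-count filter edgeR called 1 with intrathecal RTX and 2 with subcutaneous RTX, beside the counts over all genes given below. DESeq2 called 3 with subcutaneous RTX (4.38% of all genes). Leaving out single libraries gave 0 to 3 members in JAK1 GOF recipients, 0 with intrathecal RTX and 0 to 2 with subcutaneous RTX; 1 group of the chimeras, or the vehicle group, then has 1 library, assumed to vary like the others.

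Over all genes, the 124 calls in JAK1 GOF recipients became 807 with no filter, 305 with DESeq2, 45 with limma voom, 79 with no robust prior, 50 with all 14 libraries in 1 fit and 83 to 919 without single libraries. The 54 calls with intrathecal RTX became 655, 254, 34 (no robust prior), 7 (all 14 libraries) and 5 (with library state), and 19 to 40 without single libraries. The 0 calls with subcutaneous RTX became 807, 761, 71 and 184 with no filter, DESeq2, all 14 libraries and library state, and 0 to 871 without single libraries; at an unadjusted p under 0.05 there were 3153. The 10 calls of the difference between RTX effects became 147 with no filter, 312 with DESeq2, and 0 to 90 without single libraries. For the contrast of subcutaneous RTX minus JAK1 GOF, the 519 calls became 2447, 1391, 268 (limma voom) and 1 to 1317 without single libraries, and its 2 members became 1 with DESeq2 size factors, 1 with limma voom, 1 with no robust prior and 0 to 2 without single libraries. Total counts alone gave 400 higher and 146 lower there, against 321 and 198 with TMM.

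Replicate numbers do not pair the libraries. The fit with the replicate block called 1 member in JAK1 GOF recipients (Csf2rb), where it called 123 of 17298 genes. In the contrast with subcutaneous RTX this fit called 0 members and 43 genes. It left the calls of Chil3 and Itgax in JAK1 GOF recipients and of Cebpb with intrathecal RTX, and in the contrast it left Itgax and ended Chil3 (edgeR adjusted p = 0.0507), Olr1 (0.0558), Msr1 (0.0661), Clec7a (0.103) and Car4 (0.12). Car4 also missed the threshold there with limma voom (0.0551) and no robust prior (0.0522). Under the block, directions reversed for Atp6v0d2 with intrathecal RTX (−0.10), for Marco (0.12), Plet1 (0.01) and Bhlhe41 (0.07) with subcutaneous RTX, and for Marco in the contrast (0.04).

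With library state, directions reversed for Marco in JAK1 GOF recipients (−0.22), for Plet1 (−0.18), Bhlhe41 (−0.08), Csf2ra (−0.18) and Csf2rb (−0.11) with intrathecal RTX, and for Bhlhe41 with subcutaneous RTX (0.04). Leaving out single libraries also turned directions, none of them in called values. Log2 fold changes then ran between −0.21 and 0.34 for Marco in JAK1 GOF recipients. With intrathecal RTX they ran between −0.01 and 0.14 for Plet1, −0.09 and 0.29 for Atp6v0d2, and −0.14 and 0.18 for Bhlhe41. With subcutaneous RTX they ran between −0.86 and 0.21 for Marco, −0.11 and 0.23 for Pparg, −0.44 and 0.02 for Plet1, and −0.28 and 0.28 for Bhlhe41. The difference between RTX effects ran between −0.30 and 0.26 for Bhlhe41, and the contrast between −0.95 and 0.12 for Marco and −0.47 and 0.56 for Krt79. With 2 or 3 libraries per group, and 21 to 60 counts of Krt79 in the chimeras, the members' intervals stay wide.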
